A study of Mus musculus with 6 samples.

Results

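The genes described here are Ngfr, which encodes the p75 neurotrophin receptor, Sort1, which encodes its partner sortilin, and the neurotrophin ligands Bdnf and Ntf3. They are 4 of the 32815 gene rows of the deposited expression table, matched by exact symbol, and were chosen with their difference between stretched and control cells already known. Their difference between the groups is therefore given as a description, without a test. Poly(A) RNA-seq was done on C2C12, an immortalised wild-type mouse myoblast line, in 3 libraries of cells under cyclic mechanical stretch (MS) and 3 libraries of control cells. Stretch was applied by bending the culture plate at a displacement of 4 mm and a frequency of 1 Hz for 8 h, a duration that the design text also tags MS6, and its size is stated as 5333 μ, without saying what μ stands for. All 6 libraries carry the same genotype and the same batch label, and the labels name no other agent. C2C12 is a single line, and the labels leave unsaid whether replicates are separate cultures. The p-values given below then cover only the library-to-library spread, which may be technical. In a culture measured in bulk, fewer cells that hold a transcript and less of it per cell cannot be told apart.

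Neurotrophins are secreted as proneurotrophins, and proteases remove the prodomain to release the mature ligand. Mature ligands act mainly through Trk receptor kinases, whereas p75, a death domain receptor of the tumour necrosis factor receptor superfamily, binds every neurotrophin and, together with sortilin, binds the proforms. Neurotrophins are best known as survival factors of neurons. In muscle, p75 is known from myoblasts and regenerating fibres, Bdnf is made by muscle cells and their precursors, and Ntf3 made by muscle supports the sensory neurons that supply muscle spindles.

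RefSeq promoter windows, which run from 250 bases before to 50 bases after an annotated start, were present for 3 of the 4 genes: 1 window for Ngfr, 7 for Bdnf and 2 for Ntf3. They carry the coordinates of build GRCm38.p6, which is not the mm39 build of the expression table. The Ngfr window is shown because Ngfr has the largest difference of the 4 genes and 1 annotated start, and the Bdnf window because it holds the letters TCACGTCA, a variant of the cAMP response element through which CREB is known to act on Bdnf in neurons. Both are written 5′ to 3′ on the gene's own strand, with capitals marking GGGCGG, the core of the GC box bound by SP1, on either strand in Ngfr, and TCACGTCA in Bdnf.
Ngfr, chr11:95587649-95587948, minus strand: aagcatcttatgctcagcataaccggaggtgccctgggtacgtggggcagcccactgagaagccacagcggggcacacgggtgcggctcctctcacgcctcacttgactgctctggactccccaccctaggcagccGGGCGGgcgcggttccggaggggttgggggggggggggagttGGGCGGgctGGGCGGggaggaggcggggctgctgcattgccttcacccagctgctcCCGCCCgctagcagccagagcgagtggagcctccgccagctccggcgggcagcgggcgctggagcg
Bdnf, chr2:109692186-109692485, plus strand: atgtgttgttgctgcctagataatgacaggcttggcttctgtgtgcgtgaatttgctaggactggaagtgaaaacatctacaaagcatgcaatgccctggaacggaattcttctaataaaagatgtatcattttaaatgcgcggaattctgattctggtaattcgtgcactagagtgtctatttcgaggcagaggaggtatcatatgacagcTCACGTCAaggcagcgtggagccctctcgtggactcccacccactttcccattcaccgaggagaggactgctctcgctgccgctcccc

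The Ngfr window had a GC content of 71.7%, above that of 92.6% of the 32851 RefSeq windows, and held 4 matches to GGGCGG. The Bdnf window shown had a GC content of 48.7% and 1 match to TCACGTCA. Of all windows, 35.7% held GGGCGG and 0.441% held TCACGTCA on either strand. Also searched on both strands were the CRE TGACGTCA (1.79% of windows) and the EGR core GCGGGGGCG (2.91%). A heat shock element of alternating GAA, TTC and GAA units spaced by NN (0.603%) and an ATF4 element TGATGNAA (3.97%) were searched as well. The remaining letters were TGANTCA, a loose form of the AP-1 site (7.81%), the NRF2 core TGACNNNGC (12.4%) and the TATA box TATAAA (13.6%). The Ngfr window held none of these letters. Another Bdnf window, starting at 109676782 on chromosome 2, held 2 GGGCGG matches and 1 match to TGANTCA, which reads TGAATCA. The Bdnf window starting at 109692777 held 1 GGGCGG match, and the Bdnf window starting at 109722671 held 1 ATF4 match. The Ntf3 windows starting at 126164911 and 126166695 on chromosome 6 held 2 and 1 GGGCGG matches. Expression values were given per gene, so they do not tell the Bdnf starts apart.

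Expression was given as FPKM, fragments scaled by transcript length and library total, and differences below are MS minus control in log2(FPKM + 1), a scale on which changes of low genes look smaller. From 21893 to 23737 genes per library had a value above 0, and 73.7% of the variance lay on a component that separated the groups. The next component, with 15.3%, separated MS 1 and control 3 from the other 4 libraries. Transcripts of other tissues were unevenly spread over the libraries: markers of kidney summed to 110, 99.8 and 103 FPKM in MS 1, MS 2 and MS 3, against 1.41, 1.83 and 100 FPKM in control 1, control 2 and control 3, with Kap the most abundant. Markers of tongue and salivary gland summed to 173, 11.6 and 10.8 FPKM in MS libraries, against 11.3, 11.3 and 146 FPKM in control libraries, led by Amy1, and lens markers, led by Cryaa, to 374, 1333 and 1462 FPKM in MS libraries, against 1635, 1239 and 305 FPKM in control libraries. Results are therefore also given with a library set of 3 levels as a term (control 1 and 2, control 3 with MS 1, and MS 2 and 3), chosen after seeing the data, in which the difference becomes MS 1 minus control 3. Of the myoblast markers, Des, the muscle intermediate filament, stood at 46.7 to 57.8 FPKM in MS and 51 to 59.8 FPKM in control libraries. Myod1, the myogenic factor, averaged 1.06 ± 0.206 FPKM in MS and 1.69 ± 0.29 FPKM in control libraries (SD, n = 3 each). Myod1 (log2 difference −0.38), Cdh15 (−0.57), Itga7 (−0.44), Vcam1 (−0.69), Ncam1 (−0.59) and Cdh2 (−0.42) were lower in MS at a limma adjusted p under 0.05. Chrna1 was higher (0.37) at that threshold, and Des, Myf5 and Tnnt2 did not reach it. Pax7, which marks muscle stem cells, was listed at 0 in MS 1, MS 2 and every control library.

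Ngfr transcripts were about 3 times as abundant in stretched as in control cells, while those of Sort1 and Bdnf were less abundant and Ntf3 was close to 0 in both groups. Ngfr (ENSMUSG00000000120, chromosome 11, 95459644 to 95478561, minus strand, 1 transcript) had 12.8, 13.2 and 14.3 FPKM in MS libraries, against 3.29, 4.14 and 4.91 FPKM in control libraries. The lowest stretched library lay well above the highest control library, so the groups did not overlap. Mean levels were 13.4 ± 0.794 FPKM in MS and 4.11 ± 0.812 FPKM in control libraries (SD, n = 3 each), a ratio of 3.27. The log2 difference was 1.51 with a standard error of 0.11, or 2.84-fold on the scale with the pseudocount of 1, and 1.73 without a pseudocount. Ranked by this difference, Ngfr was number 68 of 12028 tested genes. By level it was a gene of middle abundance, with 54.4% of the tested genes below its mean.

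**Figure D1:**
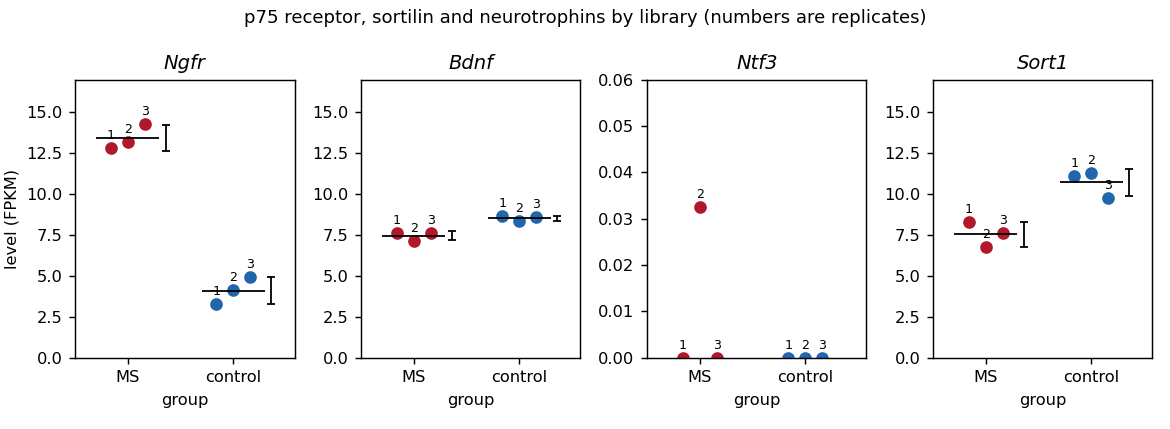
FPKM (vertical axis) of Ngfr, Bdnf, Ntf3 and Sort1 in each MS and control library; points are libraries with their replicate number, horizontal lines are means and bars are SD (n = 3), except for Ntf3, which has its own axis and no mean. Ngfr lies between 12.8 and 14.3 FPKM in MS and between 3.29 and 4.91 FPKM in control libraries, and Bdnf and Sort1 lie lower in MS than in control libraries.

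Sort1 (ENSMUSG00000068747, chromosome 3, 108191398 to 108268827, plus strand, 3 transcripts), the sorting receptor that carries proteins from the Golgi to endosomes and joins p75 at the cell surface, had 8.3, 6.77 and 7.62 FPKM in MS libraries, against 11.1, 11.3 and 9.78 FPKM in control libraries. Every stretched library lay below every control library, with MS 1 and control 3 nearest to each other. The means were 7.57 ± 0.767 FPKM in MS and 10.7 ± 0.805 FPKM in control libraries (SD, n = 3 each), a ratio of 0.707. The log2 difference was −0.45 with a standard error of 0.08. A larger decrease was found for 12% of the tested genes.

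Because Ngfr was higher and Sort1 lower, their balance was reversed between the groups. The ratio of Ngfr to Sort1 within a library, in FPKM, was 1.54, 1.95 and 1.88 in MS libraries, against 0.297, 0.367 and 0.502 in control libraries. Ngfr transcripts thus outnumbered Sort1 transcripts in each stretched library and were outnumbered in each control library.

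Bdnf (ENSMUSG00000048482, chromosome 2, 109505045 to 109557352, plus strand, 7 transcripts), the ligand of TrkB, had 7.63, 7.14 and 7.61 FPKM in MS libraries, against 8.65, 8.36 and 8.58 FPKM in control libraries. The values were tight within each group and did not overlap, but the gap was small. Means of 7.46 ± 0.28 FPKM in MS and 8.53 ± 0.149 FPKM in control libraries (SD, n = 3 each) gave a ratio of 0.874. The log2 difference was −0.17 with a standard error of 0.05, and 26.7% of the tested genes had a larger decrease. Its size depended on scaling, being −0.08 after rescaling to TPM.

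Ntf3 (ENSMUSG00000049107, chromosome 6, 126078375 to 126143678, minus strand), the ligand of TrkC, was listed at 0 FPKM in 5 of 6 libraries and at 0.0325 FPKM in MS 2. It did not reach the mean of 1 FPKM required for the fit, and no fold is given. The other 3 genes passed that filter, and the groups did not overlap for any of them. Among all tested genes the groups did not overlap for 62.7%, with all MS libraries above all control libraries for 35.9% and below for 26.8%, and since the genes were chosen on this contrast, nothing is read from their count.

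The 3 genes were also set beside the transcripts of other tissues. Control 3 held about as much kidney marker transcript as the MS libraries, and it shared the tongue and salivary gland transcripts with MS 1. Ngfr stood at 4.91 FPKM in control 3, its highest control value, and at 12.8 FPKM in MS 1, its lowest MS value. MS 1 minus control 3 gave a log2 difference of 1.22 for Ngfr, −0.15 for Bdnf and −0.21 for Sort1. The mean of MS 2 and MS 3 minus that of control 1 and control 2 gave 1.65 for Ngfr, −0.18 for Bdnf and −0.57 for Sort1. Each gene kept its sign in both comparisons, which groups that do not overlap make certain. For Sort1 the size differed by more than a factor of 2. Whether RNA of other tissues carried part of these differences was not tested.

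**Figure D2:**
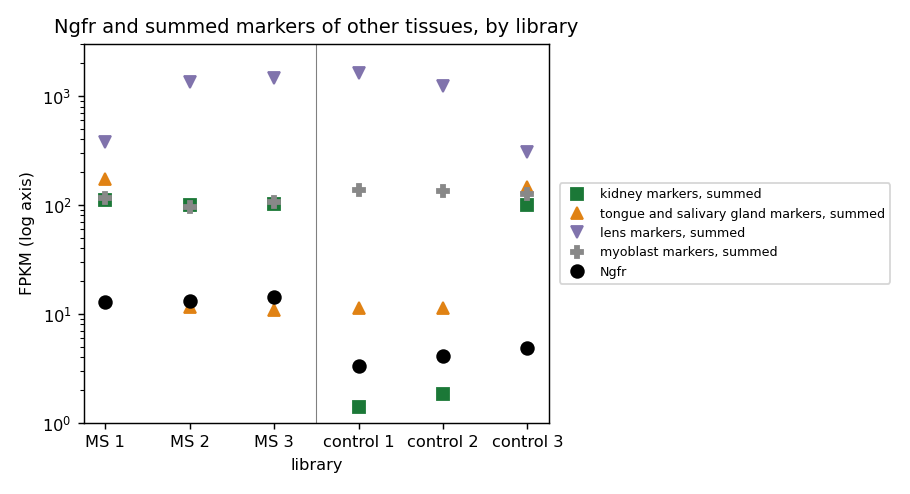
Summed FPKM of kidney, tongue and salivary gland, lens and myoblast markers and FPKM of Ngfr (vertical log axis) in each library. Kidney markers sum to about 100 FPKM in control 3 and in every MS library. Ngfr is at 4.91 FPKM in control 3 and at 12.8 FPKM in MS 1.

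Cells that carry Ngfr in nerve and brain were represented by 2 marker lists. Schwann cell markers summed to 8.25, 8.6 and 6.94 FPKM in MS libraries, against 18.5, 14.8 and 11.9 FPKM in control libraries, with most of the difference in Egr2. The defining marker Sox10 stayed at or below 0.0922 FPKM in all 6 libraries, and 5 of 9 Schwann cell genes were under 1 FPKM throughout. Neuron markers summed to 22.8, 20.3 and 19.3 FPKM in MS libraries, against 18.3, 19.4 and 20.1 FPKM in control libraries, led by the tubulin Tubb3, and 7 of 11 were under 1 FPKM throughout. Egr2, with 2.73, 2.45 and 3.52 FPKM in MS and 11.5, 10.2 and 6.94 FPKM in control libraries, was the only Schwann cell marker whose groups did not overlap. It also belongs to the EGR family described below. The neuron sums of the groups overlapped, but single neuron markers differed in both directions. Tubb3 was higher in MS (log2 difference 0.46, limma adjusted p = 0.00319). Stmn2 (−0.44, limma adjusted p = 0.00266) and Syt1 (−0.33, limma adjusted p = 0.0264) were lower. The groups did not overlap for these genes, nor for Map2, which stayed under 1 FPKM throughout. A share of either cell type in the Ngfr difference was not tested.

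Of the other ligands, Ntf5, which like Bdnf acts through TrkB, was barely present. Ntf5 had 0.0501, 0.245 and 0.333 FPKM in MS libraries, against 0.1, 0.378 and 0.14 FPKM in control libraries, with overlapping groups.

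Trk receptor transcripts were close to 0. Ntrk2, which encodes TrkB, had 0.00865, 0.00289 and 0 FPKM in MS libraries, against 0.00279, 0 and 0.0157 FPKM in control libraries. Ntrk3, which encodes TrkC, had 0.025, 0.0296 and 0.015 FPKM in MS libraries, against 0.0436, 0.0201 and 0.0233 FPKM in control libraries. Both lay far below Ngfr in all 6 libraries, with overlapping groups.

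Among the relatives of sortilin, Sorcs2, a VPS10P domain receptor that also binds p75 and proneurotrophins, was the one expressed above 1 FPKM, and it moved the other way from Sort1. It had 3.04, 3.29 and 2.83 FPKM in MS libraries, against 2.12, 1.75 and 2.1 FPKM in control libraries. The log2 difference was 0.44 (SE 0.08, limma adjusted p = 0.00377), with no overlap of the groups. It was 0.38 with the library set of 3 levels and was not called; adjusted p values over the 16 alternatives ran between 0.00164 and 0.12. Sorl1 stayed at or below 0.092 FPKM, Sorcs1 at or below 0.0182 FPKM and Sorcs3 at or below 0.0272 FPKM in all 6 libraries.

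Ordered by level, Ngfr led in stretched cells with 13.4 FPKM. It was followed by Sort1 and Bdnf at 7.57 and 7.46 FPKM, whose ranges overlapped, and by Sorcs2 at 3.06 FPKM. In control cells Sort1 led with 10.7 FPKM, above Bdnf at 8.53 FPKM, and Ngfr followed with 4.11 FPKM and Sorcs2 with 1.99 FPKM. Ngfr thus stood at the head of these genes in stretched cells and below Sort1 and Bdnf in control cells.

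The partners of these genes were described through lists of pathway genes, which leave out the 4 genes themselves. Of 163 list rows, 113 were tested; 32 rose and 24 fell at an adjusted p under 0.05, or 49.6% called, with a median log2 difference of 0.02. Of all 12028 tested genes, 53.8% were called, 30.6% higher and 23.2% lower, with a median of 0.05, so the lists as a whole stood near the background. With the library set of 3 levels, 13 rose and 8 fell. In a separate list of 102 other rows that the deposited annotation gives to the KEGG neurotrophin signaling pathway, 80 were tested, 24 rose and 21 fell, with a median of 0.04, and 10 rose and 8 fell with the library set of 3 levels.

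**Figure D3:**
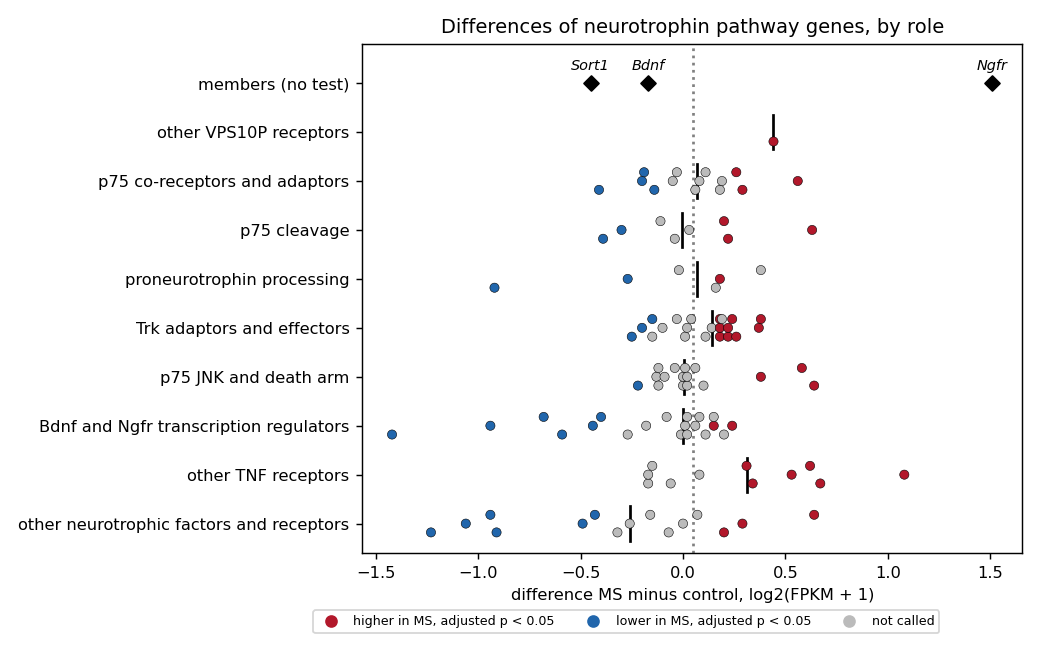
Log2 differences (horizontal axis, MS minus control, log2(FPKM + 1)) of the tested genes of each role; each point is a gene, red where higher and blue where lower in MS at an adjusted p under 0.05 and grey where not called. Short bars are list medians, the dotted line is the median of all tested genes at 0.05, and diamonds mark Ngfr at 1.51, Bdnf at −0.17 and Sort1 at −0.45.

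Of the proteins that sit beside p75 or bind its intracellular domain, 14 of 20 were tested, 3 rose and 4 fell. Rtn4r, the Nogo receptor with which p75 forms a complex in neurons, rose to 4.24, 4.35 and 4.87 FPKM in MS libraries, against 2.66, 2.27 and 3.25 FPKM in control libraries (log2 difference 0.56, adjusted p = 0.00352), and its co-receptor Lingo1 stayed under 1 FPKM. Ripk2, a kinase that binds the p75 death domain, fell to 10.6, 9.48 and 9.67 FPKM in MS libraries, against 12.3, 13.6 and 14.6 FPKM in control libraries (log2 difference −0.41, adjusted p = 0.00296). The groups did not overlap for either gene. Zfp369, a zinc finger protein that interacts with p75, rose by 0.29 (adjusted p = 0.0326), and the adaptor Traf4 rose by 0.26 (adjusted p = 0.0166), both on the log2 scale. These calls were lost under 7 and 5 of the 16 alternatives, and with the library set of 3 levels Ripk2 alone of the list was called.

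Of 9 genes whose products cut p75, 8 were tested, 3 rose and 2 fell. The sheddases Adam17 and Adam10, which release the p75 ectodomain, both fell. Adam17 averaged 17.4 ± 0.951 FPKM in MS and 23.1 ± 1.12 FPKM in control libraries (log2 difference −0.39, adjusted p = 0.0013), and Adam10 averaged 22.4 ± 1.1 FPKM in MS and 27.9 ± 1.65 FPKM in control libraries (−0.30, adjusted p = 0.00478). Psen2, a catalytic subunit of the gamma-secretase that then cuts the membrane stub, rose to 4.43, 3.65 and 4.12 FPKM in MS libraries, against 2.37, 2.22 and 2.18 FPKM in control libraries (log2 difference 0.63, adjusted p = 0.000519). Only Psen2 of this list was called with the library set of 3 levels; the differences were then −0.28 for Adam17 and −0.13 for Adam10, and the adjusted p over the alternatives reached 0.0697 and 0.229 for these genes.

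Of the proteases and inhibitors that act on proneurotrophins, 6 of 16 were tested, 1 rose and 2 fell. Plau, the urokinase that activates plasminogen, which in turn cuts proneurotrophins outside the cell, fell to 2.18, 2.73 and 3.25 FPKM in MS libraries, against 6.51, 6.05 and 5.47 FPKM in control libraries (log2 difference −0.92, adjusted p = 0.000557), with no overlap. Plat, the tissue activator of plasminogen, fell by 0.27 on the log2 scale (adjusted p = 0.0201), a call lost under 7 of the 16 alternatives. Furin, which cuts proneurotrophins inside the cell, averaged 15.7 ± 0.717 FPKM in MS and 13.9 ± 0.911 FPKM in control libraries and was not called (adjusted p = 0.067). Plasminogen itself, Plg, stayed at or below 0.0935 FPKM in all 6 libraries.

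Although Trk receptors were near 0, most adaptors and effectors that Trk kinases share with other receptors were present: 21 of 24 were tested, 9 rose and 3 fell, with a median of 0.14. Shc2, an adaptor that binds activated Trk receptors, averaged 13.6 ± 0.283 FPKM in MS and 10.3 ± 1.05 FPKM in control libraries (log2 difference 0.38, adjusted p = 0.00423). Rab7, which directs endosomes with internalised receptors to lysosomes, averaged 182 ± 2.96 FPKM in MS and 151 ± 6.9 FPKM in control libraries (0.26, adjusted p = 0.00305). The adaptor Sh2b2 rose by 0.37 (adjusted p = 0.0149) and the docking protein Gab1 fell by 0.25 (adjusted p = 0.0246) on the log2 scale, calls lost under 3 and 6 of the 16 alternatives. With the library set of 3 levels, 2 genes of the list rose and none fell at that threshold; Rab7 then had a difference of 0.19, and its adjusted p over the alternatives ran between 0.000379 and 0.0788.

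Of the JNK and cell death genes through which p75 is known to act in neurons, 16 of 17 were tested, 3 rose and 1 fell, or 25% called. Bax, the pore-forming protein of the mitochondrial outer membrane, rose to 81.6, 84.9 and 85.8 FPKM in MS libraries, against 55.7, 57.7 and 54.1 FPKM in control libraries (log2 difference 0.58, adjusted p = 7.71e-05). Mapk8ip3, a scaffold of JNK and of kinesin transport, averaged 11.1 ± 0.188 FPKM in MS and 6.8 ± 1.04 FPKM in control libraries (0.64, adjusted p = 0.00114). Neither gene's groups overlapped, and both were called under all 16 alternatives. Bcl2l11, the death protein Bim, rose by 0.38 (adjusted p = 0.0472) and the scaffold Mapk8ip1 fell by 0.22 (adjusted p = 0.0406) on the log2 scale, each call being lost under 9 of the 16 alternatives. The JNK kinases Mapk8 and Mapk9 and the caspase Casp9 were not called.

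Factors known to regulate transcription of Bdnf or Ngfr included the immediate-early EGR family, of which Egr1 and Egr3 are known to act on Ngfr, and these fell. Of 22 such genes, 20 were tested, 2 rose and 6 fell. Egr2 fell to 2.73, 2.45 and 3.52 FPKM in MS libraries, against 11.5, 10.2 and 6.94 FPKM in control libraries (log2 difference −1.42, adjusted p = 0.000589). Egr1 averaged 133 ± 14.2 FPKM in MS and 201 ± 30.4 FPKM in control libraries (−0.59, adjusted p = 0.00517), and Egr3 averaged 1.65 ± 0.374 FPKM in MS and 4.14 ± 1.17 FPKM in control libraries (−0.94, adjusted p = 0.00349). Bhlhe40, a repressor that acts on Bdnf in rodent neurons, averaged 19.9 ± 1.21 FPKM in MS and 32.6 ± 5.02 FPKM in control libraries (−0.68, adjusted p = 0.00202). Control 3 had the lowest control value of all these genes, and with the library set of 3 levels the differences were −0.54 for Egr3, which was no longer called, and −0.33 for Bhlhe40; the adjusted p over the alternatives reached 0.174 for Egr3 and 0.0304 for Bhlhe40. Ngfr was thus higher in the group where these factors were lower, and a link between them was not tested. Creb1, which encodes CREB, and its coactivators Crtc1, Crtc2 and Crtc3 had differences between −0.01 and 0.08 and were not called.

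Ngfr belongs to the tumour necrosis factor receptor superfamily, of which 26 other rows were listed and 11 tested; 6 rose and none fell, with a median of 0.31. At an adjusted p under 0.05 that is 54.5% higher, against 30.6% of all tested genes. Eda2r, the receptor of ectodysplasin A2, rose to 16.2, 16.2 and 17.1 FPKM in MS libraries, against 7.39, 7.19 and 7.19 FPKM in control libraries (log2 difference 1.08, adjusted p = 1.60e-05). Tnfrsf10b, the mouse TRAIL death receptor, averaged 7.86 ± 0.234 FPKM in MS and 4.55 ± 0.187 FPKM in control libraries (0.67, adjusted p = 8.88e-05). Tnfrsf22 and Tnfrsf23, neighbouring decoy receptors of TRAIL in the mouse, rose by 0.62 and 0.53 (adjusted p = 0.000623 and 0.00123); they are closely related copies between which reads could be split. Fas, Tnfrsf1a and Tnfrsf1b, other receptors of this superfamily with roles in death or inflammation, were not called. In the fit with the library set of 3 levels, 5 of the list rose, with the difference of Eda2r at 1.07.

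Among neurotrophic factors outside the neurotrophin family, Lif fell together with the receptor genes Lifr and Osmr. Of 21 such factors and receptors, 15 were tested, 3 rose and 6 fell, with a median of −0.26. Lif, a cytokine that acts on neurons and on muscle precursors, fell to 2.97, 3.02 and 3.07 FPKM in MS libraries, against 8.07, 8.3 and 8.91 FPKM in control libraries (log2 difference −1.23, adjusted p = 1.60e-05). Its receptor subunit Lifr averaged 1.14 ± 0.0973 FPKM in MS and 3.11 ± 0.939 FPKM in control libraries (−0.91, adjusted p = 0.00356), and Osmr, the oncostatin M receptor, averaged 2.87 ± 0.113 FPKM in MS and 6.47 ± 1.05 FPKM in control libraries (−0.94, adjusted p = 0.000365). Clcf1, a related cytokine, averaged 22.2 ± 1.28 FPKM in MS and 13.9 ± 0.529 FPKM in control libraries (0.64, adjusted p = 0.000141). In the fit with the library set of 3 levels, 2 of the list fell and 1 rose; Lifr then had a difference of −0.42, and its adjusted p over the alternatives reached 0.0542.

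The genes whose profile over the 6 libraries lay nearest to that of each member were found among 7230 genes of at least 5 FPKM, by the root mean square distance between centred log2 values. For Ngfr these were Clba1 at 0.067, Gpt2 at 0.093, Aars and Tbc1d2 at 0.097 and Wars at 0.099. Clba1 averaged 39.3 FPKM in MS and 13.6 FPKM in control libraries, a log2 difference of 1.47. For Sort1 the nearest were Fundc1 at 0.024, Tmem106c at 0.028, Sspn at 0.031, Kdelr1 at 0.032 and Mapk3 at 0.034, and for Bdnf they were Map4k5 at 0.019, Hdac6 at 0.020, Gbf1 at 0.021, Col18a1 at 0.022 and Trim56 at 0.023. None of these genes was among the 5 with the highest Pearson correlation to the same member, so the names depend on the measure of likeness. All values come from the same 6 libraries in 2 separated groups, and the 5 genes nearest to Ngfr had log2 differences between 1.45 and 1.51.

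Rows that overlap these genes were low. No row overlapped Ngfr or Ntf3. Gm45346, on the strand opposite to Bdnf, stayed at or below 0.0702 FPKM, and Gm43099, on the strand of Sort1, stayed at or below 0.0105 FPKM. Both lay far below the values of the genes they overlap in all 6 libraries.

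**Figure D4:**
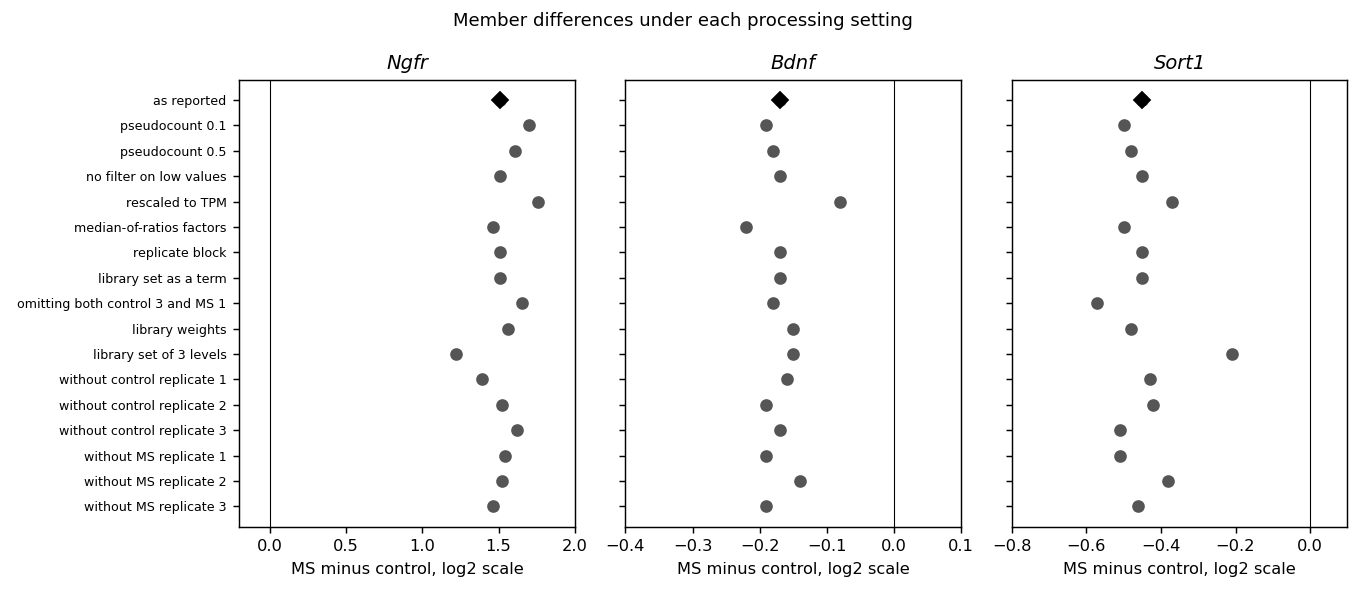
Log2 difference, MS minus control (horizontal axis), of Ngfr, Bdnf and Sort1 under each processing setting (rows); the diamond is the value reported and the vertical line marks 0. Ngfr stays between 1.22 and 1.76, and Bdnf and Sort1 stay below 0 under every setting shown.

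Across the settings tried, the difference of Ngfr ranged between 1.22 and 1.76, that of Bdnf between −0.22 and −0.08 and that of Sort1 between −0.57 and −0.21. None of these genes changed sign under a setting tried. Their groups did not overlap, so only rescaling to TPM or by median-of-ratios factors could have changed a sign. Relative to the median of all tested genes, the differences were 1.46 for Ngfr, −0.22 for Bdnf and −0.50 for Sort1, against 1.60, −0.24 and −0.54 after rescaling to TPM.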

How the data were processed

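The deposited table holds FPKM values that the authors made, 1 per gene and library, per the file headers. Tools listed in the submitters' processing notes are HISAT2 2.2.1, cutadapt 1.9, edgeR, DESeq2 and StringTie 2.1.6, and the build is mm39; the sources used here do not give the role of each tool or the treatment of multiply mapped reads and of strand, although the labels' protocols describe strand-marked libraries. Of 32815 rows, 31077 matched an ID in the GENCODE M21 name table, which gave their symbols, and 1738 kept their ID. FPKM is not a count, so no count test was run and depth is unknown. Low values gave library totals between 0.961 and 1.008 of that of control 1.

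The 12028 genes that reached a mean of 1 FPKM were fitted on log2(FPKM + 1) with limma 3.58.1 in R 4.3.3 (lmFit and eBayes with trend, two-sided, Benjamini-Hochberg adjustment over all tested genes, threshold 0.05), and the steps were tested on simulated data. Every adjusted p comes from limma. Samples were grouped by the treatment label, and MS was compared with control. The members and lists were chosen with earlier results of these data known, and the KEGG list was taken from the deposited annotation after the files were seen, of which 16 cells were not analysed. Named were the 4 members, the neurotrophins, Trk receptors and VPS10P receptors, up to 4 called genes of each other list with the largest difference, the 5 genes nearest to each member, and marker genes, some of which are not reported here; Lingo1, Plg, Furin, the uncalled JNK, caspase, CREB and tumour necrosis factor receptor genes and Clcf1 were named after their values were seen. The alternatives were other pseudocounts (0.1 and 0.5), no filter on low values, rescaling to TPM, median-of-ratios factors, a replicate block, library set terms, library weights, omitting MS 1 and control 3, and omitting each library.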

Additional observations from a re-analysis of the deposited data

How the results depend on the processing

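No setting reversed a direction. For Ngfr, Bdnf and Sort1, whose groups did not overlap, only rescaling to TPM or by median-of-ratios factors could have done so. The difference of Ngfr (1.51) was 1.70 with a pseudocount of 0.1, 1.76 after rescaling to TPM and 1.22 with the library set of 3 levels, chosen after seeing the data. That of Bdnf (−0.17) was −0.08 after rescaling to TPM and −0.22 with median-of-ratios factors. That of Sort1 (−0.45) was −0.57 without both MS 1 and control 3 and −0.21 with the library set of 3 levels. Without 1 library at a time, Ngfr ranged between 1.39 and 1.62, Bdnf between −0.19 and −0.14 and Sort1 between −0.51 and −0.38.

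Of tested genes, 3683 were higher and 2787 lower in MS. Rescaling to TPM, which moved the median by 0.12, gave 5004 higher and 2030 lower, median-of-ratios factors gave 3094 and 3182, and the library set of 3 levels gave 1845 and 1321. Of the pathway lists, 32 genes were higher and 24 lower; rescaling to TPM gave 49 higher, and the library set of 3 levels gave 13 higher and 8 lower. Without 1 library at a time the lists gave 22 to 30 higher and 20 to 28 lower. Of the 33 genes that the naming rule gives outside the members, 456 values under alternatives kept the call and 72 lost it, 17 of them with the library set of 3 levels.

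Replicate numbers do not pair the libraries: deviations of same-numbered libraries correlated at −0.334, 0.245 and −0.372, and not every library correlated best with its own number. With a replicate block, member differences were 1.51, −0.17 and −0.45, 3323 genes were higher and 2567 lower, and the lists gave 27 higher and 21 lower. The depth behind each value is unknown, which limits what can be said of genes near 0 such as Ntf3.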
